A study of Mus musculus with 12 samples.

Results

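RNA of 3 libraries labelled Bcl3-/- and taken after 1 day of osteogenic induction was compared with RNA of 3 WT libraries taken after 3 days, 6 of the 12 libraries of the study, chosen by their labels alone. All were primary osteoblast cultures from the calvariae (skull vaults) of C57BL/6J pups 3 to 5 days old, expanded and grown to confluence, then given osteogenic medium with 50 µg/mL L-ascorbic acid and 2 mM β-glycerophosphate. The pair asks which genes keep early Bcl3-/- cultures apart from later WT cultures, and thus bears on the study's question of whether osteoblasts without BCL3 run ahead of WT osteoblasts. The 6 libraries came from 6 separate cultures, each from 1 to 3 calvariae by the labels and from 3 pooled ones by the study's methods, so no culture contributed to both groups. Genotype and day differ together in this pair and cannot be told apart. The other libraries, 3 labelled Bcl3-/- on day 3 and 3 of WT on day 1, entered the same fit and are given where they help to place a value.

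BCL3 is an atypical member of the IκB family that works in the nucleus, where it binds NF-κB p50 and p52 dimers and either raises or lowers transcription of their targets. Bone-forming cells pass from dividing precursors through a stage of collagen deposition and alkaline phosphatase activity to a late stage of mineral deposition. RUNX2 and osterix (Sp7) are the transcription factors that commit cells to this path, ascorbic acid allows collagen to be hydroxylated and secreted, and β-glycerophosphate supplies phosphate for mineral. Primary calvarial cultures are not pure and can hold resident macrophages, tendon-like fibroblasts and muscle cells beside the osteoblasts.

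The targeted gene was examined first. Bcl3 (GRCm38 chr7:19808462-19822770) stood at 17.5, 19.7 and 19.2 CPM (read counts scaled to the size of each library) in day 1 libraries labelled Bcl3-/-, against 14.8, 15.9 and 12.8 CPM in day 3 WT libraries. The day 1 libraries labelled Bcl3-/- thus had no less Bcl3 RNA than day 3 WT libraries. The groups did not overlap, and the log2 fold change was 0.37 (SE 0.12, 95% interval 0.12 to 0.63, edgeR adjusted p = 0.0528). Day 3 libraries labelled Bcl3-/- had 10.2, 9.72 and 8.31 CPM, against 18, 21.8 and 17.8 CPM in day 1 WT libraries. Within a day, the labels overlapped on day 1. On day 3 every library labelled Bcl3-/- lay below every WT library. The study plotted Bcl3 transcript levels from its RNA sequencing for both genotypes on day 1 and day 3, without values in its text. Counts per gene do not show which part of Bcl3 the reads cover, so they cannot check the genotype. The group is therefore called by its label throughout. Every direction below is that of these libraries over day 3 WT libraries.

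Gene counts per library lay between 20009732 and 41953891 over all 12 libraries. In the fit, 16318 of 49585 genes were tested, with a biological coefficient of variation of 13.5%. Osteoblast genes stood at very different levels. Col1a1 had 38524, 39741 and 40382 CPM in day 1 libraries labelled Bcl3-/- and 47045, 46164 and 49263 CPM in day 3 WT libraries. Runx2 lay between 48.6 and 59.2 CPM and Ibsp (bone sialoprotein) between 2.71 and 6.14 CPM in all 6 libraries. Bglap (osteocalcin), the marker of late osteoblasts, was below 1 CPM in all 6. The root-mean-square distance in log2 CPM between a day 1 library labelled Bcl3-/- and a day 3 WT library had a median of 0.56 over 9 pairs (0.523 to 0.616), against 0.42 among the libraries labelled Bcl3-/- on day 1 and 0.469 among those of WT on day 3. From day 1 libraries labelled Bcl3-/- the median distance was 0.642 to day 1 WT libraries (0.476 to 0.717) and 0.805 to day 3 libraries labelled Bcl3-/- (0.631 to 0.909). The ranges to day 1 WT and to day 3 WT libraries thus overlapped. The smallest distance to a library of another group, 0.476, was to a day 1 WT library.

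In all, 1199 genes were higher in day 1 libraries labelled Bcl3-/- than in day 3 WT libraries (7.35% of genes tested) and 1194 were lower (7.32%), a total of 14.7%, by edgeR's quasi-likelihood test at an adjusted p under 0.05. The median log2 fold change over all genes tested was 0.00, beside which the medians of the gene lists below can be read. Counts called in those lists are likewise to be read beside 7.35% higher and 7.32% lower. Few changes were large. A log2 fold change over 1 was passed by 168 of the genes called higher (1.03%) and one under -1 by 264 of those called lower (1.62%). For 8474 genes (51.9%) the 95% interval of the change lay wholly inside 1.5-fold. The same fit called 15.3% of genes between the genotypes on day 1, 10.4% between the genotypes on day 3, 33.4% between the days in libraries labelled Bcl3-/-, 38.5% between the days in WT libraries and 53.4% between day 3 libraries labelled Bcl3-/- and day 1 WT libraries. These counts share libraries and are given for scale only. The number of calls depended on single libraries: without day 1 Bcl3-/- replicates 1, 2 and 3 the counts higher were 999, 712 and 770 and the counts lower were 625, 512 and 592, and without day 3 WT replicates 1, 2 and 3 they were 1219, 758 and 614 higher and 1108, 818 and 597 lower. The share of calls that were higher was 50.1%, but 61.5% without day 1 Bcl3-/- replicate 1 and 65.7%, 66.5% and 64.9% in 3 limma fits on the deposited FPKM values.

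**Figure D1:**
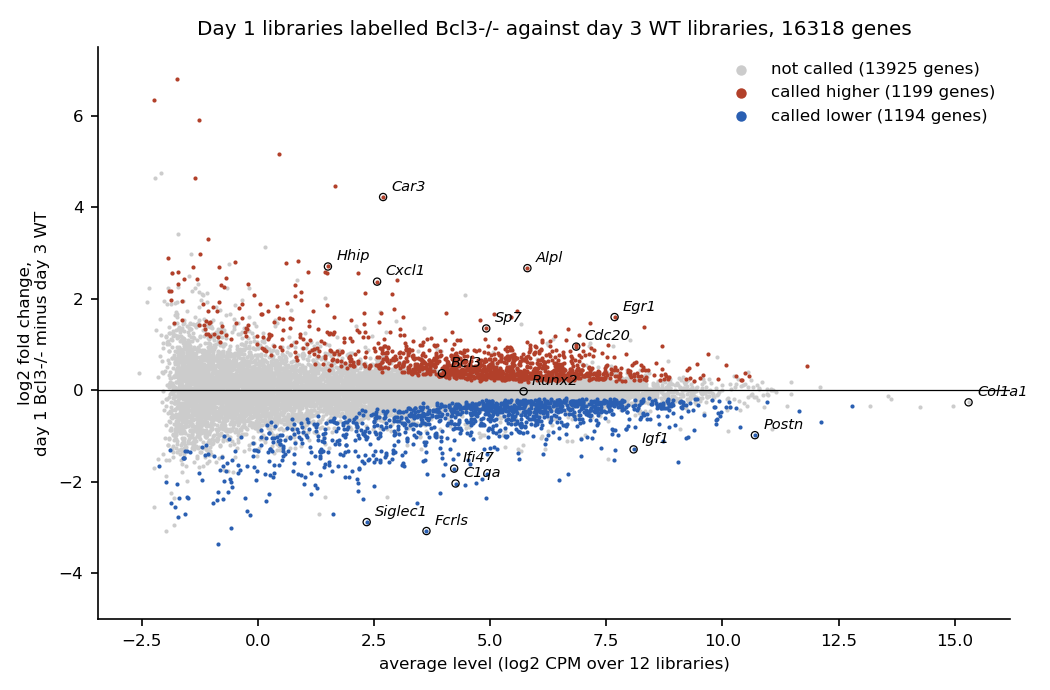
Each point is 1 of the 16318 genes tested, with the average level over the 12 libraries (log2 CPM) on the horizontal axis and the log2 fold change of day 1 libraries labelled Bcl3-/- over day 3 WT libraries on the vertical axis. Coloured points are the 1199 genes called higher and the 1194 called lower at an adjusted p under 0.05; among the genes marked by name, Alpl, Car3 and Hhip have the highest fold changes, Fcrls and Siglec1 the lowest, and Runx2 lies near 0.

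A second pair of groups, day 3 libraries labelled Bcl3-/- and day 1 WT libraries, uses none of these 6 libraries, although it comes from the same 6 cultures and shares the fit's estimate of spread. It sets the genotypes in the same order and the days in the opposite order, and this comparison was added after the values had been seen. Of the 1199 genes higher in day 1 libraries labelled Bcl3-/-, 965 (80.5%) were lower and 64 (5.34%) were higher in day 3 libraries labelled Bcl3-/- than in day 1 WT libraries, where 26.4% of all genes were lower and 27.0% were higher. Of the 1194 genes lower in day 1 libraries labelled Bcl3-/-, 896 (75%) were higher and 62 (5.19%) were lower in that pair. Most genes called in this pair were thus called with the opposite sign in the second pair. Leaving out 1 of the 6 libraries at a time left these shares at 78.6 to 85.5% and 71.7 to 82.7%. The 126 genes that went the same way in both pairs are described at the end.

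**Figure D2:**
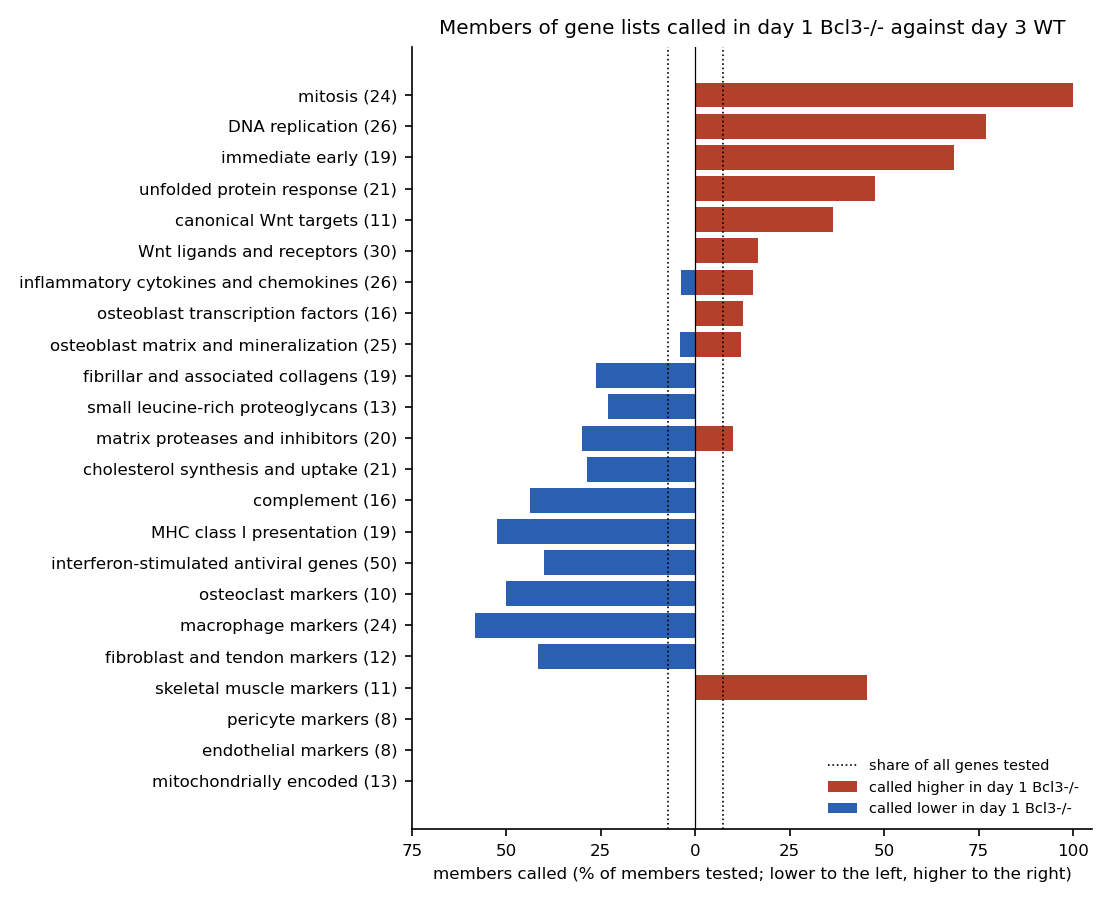
Bars give the percent of each gene list's tested members called higher (right) and lower (left) in day 1 libraries labelled Bcl3-/- than in day 3 WT libraries, for 23 lists. Dotted lines mark the share of all genes tested, 7.35% higher and 7.32% lower; all 24 mitosis genes were higher, and 14 of 24 macrophage markers and 20 of 50 interferon-stimulated genes were lower.

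Genes of cell division were the most uniform difference. All 24 genes of the mitosis list were higher in day 1 libraries labelled Bcl3-/-, against 7.35% of all genes, with a median log2 fold change of 0.80, and all 24 were called without any 1 of the 6 libraries. Their summed level was 2586, 2702 and 2603 CPM in day 1 libraries labelled Bcl3-/-, against 1619.7, 1506 and 1466 CPM in day 3 WT libraries. It was 1099.5, 1143 and 1119 CPM in day 3 libraries labelled Bcl3-/-, against 2938, 2808 and 2914 CPM in day 1 WT libraries, so that the day 1 libraries labelled Bcl3-/- stood between WT on day 1 and WT on day 3, with no overlap with either.

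Cdc20, the activator of the anaphase-promoting complex, stood at 146, 155 and 153 CPM in day 1 libraries labelled Bcl3-/- and at 81.2, 80.9 and 72.5 CPM in day 3 WT libraries (log2 fold change 0.95, SE 0.06, edgeR adjusted p = 1.56e-05). Aurka, a kinase of the spindle poles, had 86.4, 89.3 and 88.8 CPM in day 1 libraries labelled Bcl3-/- and 50.2, 46.5 and 45 CPM in day 3 WT libraries. Ccnb2, a cyclin of the mitotic kinase CDK1, had 95.5, 92.6 and 97.8 CPM against 57, 56.4 and 54.8 CPM in day 3 WT libraries. In each of these genes the lowest day 1 library labelled Bcl3-/- lay above the highest WT library of day 3. They were named for their small adjusted p, which favours such a gap. Mki67, whose protein coats mitotic chromosomes, changed by 0.77 and Top2a, which untangles sister chromatids, by 0.53 on the log2 scale.

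Promoters of 4 mitosis genes are shown because the list moved as 1 block, and mitotic genes are known to share 2 short elements near their starts: the cell cycle homology region, here TTTGAA, which the DREAM complex reads in resting cells, and CCAAT boxes, which bind NF-Y. Both were searched on both strands in the 300 bases from 250 before to 50 after the start. Of 21 of the 24 genes with a RefSeq promoter, 16 (76.2%) held TTTGAA, 19 (90.5%) held CCAAT and 16 (76.2%) held both, against 20.2%, 41.1% and 7.97% of 27025 genes. The stretches below are the 120 bases before the start, 5′ to 3′ on the gene's strand, from RefSeq on GRCm38.p6, with matches on either strand in capitals. Cdk1 and Ube2c were chosen for display after their values were seen. A match is a description of the letters and not of binding.
Cdc20 (chr4:118437344-118437463, minus strand): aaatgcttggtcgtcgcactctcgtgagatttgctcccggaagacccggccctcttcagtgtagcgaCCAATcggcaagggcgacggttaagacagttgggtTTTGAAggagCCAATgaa
Ccnb2 (chr9:70421555-70421674, minus strand): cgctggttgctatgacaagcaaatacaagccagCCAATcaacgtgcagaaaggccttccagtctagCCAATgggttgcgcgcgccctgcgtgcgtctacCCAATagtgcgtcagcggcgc
Cdk1 (chr10:69352913-69353032, minus strand): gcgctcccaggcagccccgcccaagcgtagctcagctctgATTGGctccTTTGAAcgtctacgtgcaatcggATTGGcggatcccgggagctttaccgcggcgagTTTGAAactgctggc
Ube2c (chr2:164769809-164769928, plus strand): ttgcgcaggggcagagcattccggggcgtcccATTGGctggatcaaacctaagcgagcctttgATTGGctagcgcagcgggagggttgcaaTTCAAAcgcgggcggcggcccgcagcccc

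Each stretch holds 2 or 3 CCAAT boxes, and those of Cdc20, Cdk1 and Ube2c hold TTTGAA as well. Cdk1, the mitotic kinase itself, had 116, 115 and 124 CPM in day 1 libraries labelled Bcl3-/- and 75, 85.8 and 75.6 CPM in day 3 WT libraries. Ube2c, which tags mitotic cyclins for destruction, had 82, 74.1 and 86.8 CPM in day 1 libraries labelled Bcl3-/- and 40.9, 46.5 and 38.7 CPM in day 3 WT libraries.

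Genes of DNA synthesis rose too, by less. Of 26, 20 were called higher and none lower, with a median log2 fold change of 0.46, and between 15 and 19 were called without 1 library. Rrm2, the subunit of ribonucleotide reductase that limits the supply of DNA precursors, had 277, 266 and 284 CPM in day 1 libraries labelled Bcl3-/- and 177, 158 and 144 CPM in day 3 WT libraries (log2 fold change 0.79, SE 0.09). Cdc6 and Cdc45, which load and start the replicative helicase, changed by 0.68 and 0.61, and Mcm5, a subunit of that helicase, by 0.59. Among 20 genes of cell cycle control, 4 were higher and 1 lower, and 13 had an interval inside 1.5-fold, the higher count being 4, 3, 3, 7, 2 and 2 without day 1 Bcl3-/- replicates 1 to 3 and day 3 WT replicates 1 to 3. The calls higher included Ccna2 (log2 fold change 0.75), the cyclin of S and G2 phase, and Myc (0.57), a transcription factor that drives growth. Cdkn1c, which encodes the cyclin-dependent kinase inhibitor p57, was the member called lower, with 82.3, 67.1 and 69.9 CPM in day 1 libraries labelled Bcl3-/- and 94.4, 218 and 218 CPM in day 3 WT libraries. It changed by -1.27 on the log2 scale (SE 0.30, edgeR adjusted p = 0.0154), and its call was lost without day 1 Bcl3-/- replicate 2 or 3, or day 3 WT replicate 2 or 3.

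Immediate early genes, which are transcribed within minutes of growth factor or stress signals, were the next group. Of 19, 13 were higher and none lower, with a median log2 fold change of 0.86. The number called was 12, 10 and 9 without day 1 Bcl3-/- replicates 1, 2 and 3, and 12, 8 and 9 without day 3 WT replicates 1, 2 and 3. Fos, a subunit of the AP-1 transcription factor, had 75.4, 76.9 and 93.2 CPM in day 1 libraries labelled Bcl3-/- and 31.9, 26.1 and 22.8 CPM in day 3 WT libraries (log2 fold change 1.61, SE 0.15, edgeR adjusted p = 0.000104). Egr1, a zinc finger transcription factor, had 383, 314 and 349 CPM in day 1 libraries labelled Bcl3-/- and 124, 119 and 102 CPM in day 3 WT libraries (log2 fold change 1.60, SE 0.11). The lowest of the day 1 values was more than 2 times the highest of the day 3 WT values for both genes. In day 1 WT libraries Egr1 stood at 243, 249.8 and 202 CPM and Fos at 46.2, 42.9 and 43.1 CPM, below the day 1 libraries labelled Bcl3-/- as well. Ier2, another gene of this class, changed by 1.27, and Junb, a second AP-1 subunit, by 1.22, although the call for Junb was lost in the FPKM fits.

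Genes of the unfolded protein response, which enlarges the folding capacity of the endoplasmic reticulum, were shifted slightly upward. Of 21, 10 were higher and none lower, the median log2 fold change was 0.27, and 16 had an interval inside 1.5-fold. Without day 3 WT replicate 3 the number called was 6. Hspa5, the main chaperone of that compartment, had 1582, 1693 and 1621 CPM in day 1 libraries labelled Bcl3-/- and 1336, 1229 and 1194 CPM in day 3 WT libraries, a log2 fold change of 0.38 (SE 0.07). Sdf2l1 (0.62), Hyou1 (0.57) and Creld2 (0.42), further proteins of the same compartment, moved the same way.

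**Figure D3:**
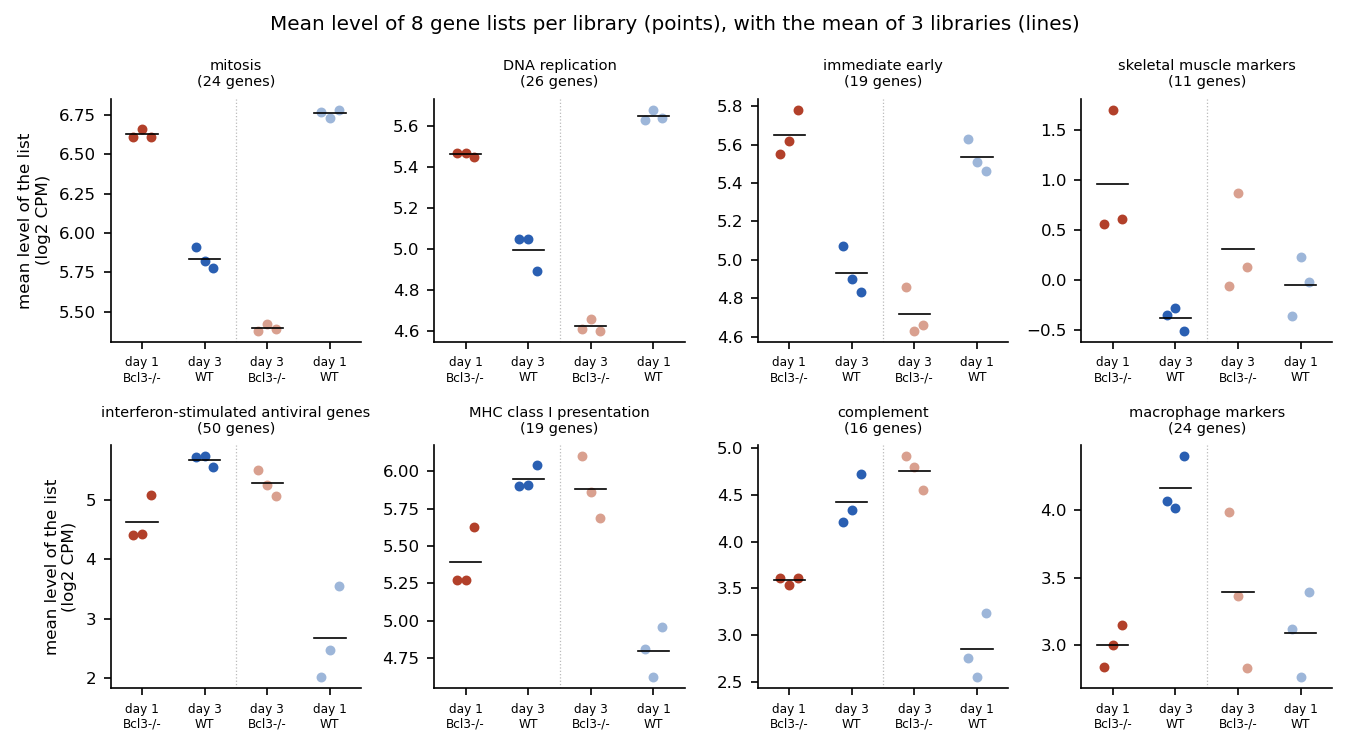
Points are the 12 libraries, and the vertical axis is the mean log2 CPM over the tested members of each of 8 gene lists. Libraries are ordered as day 1 labelled Bcl3-/-, day 3 WT, day 3 labelled Bcl3-/- and day 1 WT, 3 of each; for the mitosis genes the day 1 libraries labelled Bcl3-/- lie above those of day 3 WT, and for the macrophage, interferon-stimulated and MHC class I lists below them.

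Within the osteoblast program, alkaline phosphatase stood furthest apart. Alpl, which encodes the tissue-nonspecific alkaline phosphatase that frees phosphate for mineral, had 75.6, 125 and 115 CPM in day 1 libraries labelled Bcl3-/- and 10.6, 19.5 and 19.3 CPM in day 3 WT libraries. The means differed 6.38-fold and the log2 fold change was 2.67 (SE 0.23, 95% interval 2.18 to 3.16, edgeR adjusted p = 6.75e-05). Day 3 libraries labelled Bcl3-/- had 55.5, 57.7 and 55.7 CPM of Alpl and day 1 WT libraries 39.5, 48.7 and 46.8 CPM. All 6 libraries labelled Bcl3-/- were thus above all 6 WT libraries, each label having 3 cultures sampled on both days. The lowest Alpl of the 4 groups was in WT on day 3.

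Sp7 (osterix) had 30.3, 28.4 and 36.2 CPM in day 1 libraries labelled Bcl3-/- and 10.2, 12.8 and 14.1 CPM in day 3 WT libraries (log2 fold change 1.35, SE 0.20, edgeR adjusted p = 0.00135). Day 3 libraries labelled Bcl3-/- had 18.8, 12.4 and 18.7 CPM, against 65.2, 70.6 and 43.4 CPM in day 1 WT libraries. Sp7 was therefore higher on day 1 than on day 3 in libraries of both labels, as was Alpl, but unlike Alpl it was highest in WT. Runx2 had 57.2, 48.6 and 54 CPM in day 1 libraries labelled Bcl3-/- and 51.9, 51.5 and 59.2 CPM in day 3 WT libraries, with groups that overlapped and an interval of -0.25 to 0.20 that lay inside 1.5-fold. Among 16 osteoblast transcription factors 2 were higher, Sp7 and Tcf7, the last of these losing its call without any of 5 libraries (day 1 Bcl3-/- replicates 1, 2 and 3 and day 3 WT replicates 2 and 3), and 8 had an interval inside 1.5-fold.

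Of 25 genes of osteoblast matrix and mineralization, 3 were higher, 1 was lower and 7 had an interval inside 1.5-fold. Beside Alpl the members called higher were Pth1r, the receptor of parathyroid hormone, and Smpd3, a sphingomyelinase needed for mineralization. Pth1r had 73.3, 88.5 and 83.3 CPM in day 1 libraries labelled Bcl3-/- and 51.1, 61.1 and 60.8 CPM in day 3 WT libraries (log2 fold change 0.50, SE 0.10). Smpd3 was scarce, at 1.09, 2.22 and 1.55 CPM in day 1 libraries labelled Bcl3-/- and 0.598, 0.675 and 0.351 CPM in day 3 WT libraries, and its call was lost without day 1 Bcl3-/- replicate 2 or day 3 WT replicate 3. Sparc (osteonectin), a collagen-binding glycoprotein, was called lower with a log2 fold change of -0.35, a call lost with the title number as a block, in the FPKM fits and without day 1 Bcl3-/- replicate 1, 2 or 3 or day 3 WT replicate 2 or 3. Spp1 (osteopontin), a phosphoprotein of bone matrix, had 3265, 2730.3 and 3684 CPM in day 1 libraries labelled Bcl3-/- and 3317, 3799 and 3095 CPM in day 3 WT libraries, and its interval of -0.42 to 0.26 left room for little change in either direction. Ibsp (bone sialoprotein) gave an interval of -1.97 to 1.83, too wide to place it.

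**Figure D4:**
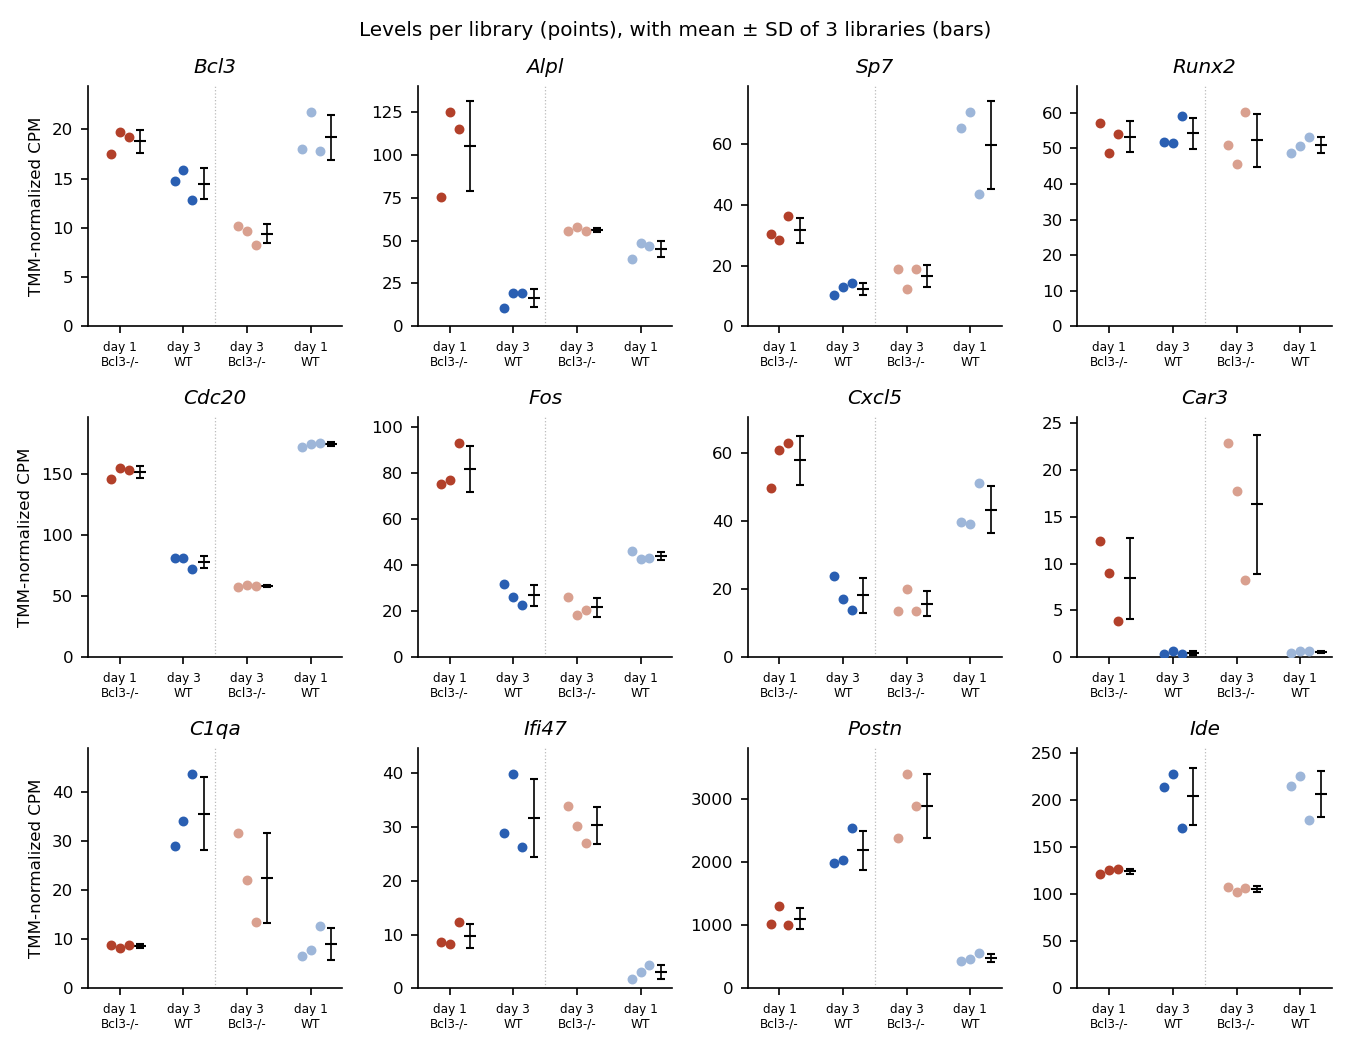
CPM of 12 genes in each library, with points for libraries and the mean with SD (n = 3 per group). Groups run from left to right as day 1 labelled Bcl3-/-, day 3 WT, day 3 labelled Bcl3-/- and day 1 WT. The first pair do not overlap in any panel but that of Runx2, whose values lie between 48.6 and 59.2 CPM in that pair. Most of the 12 genes were named because they were called, which favours groups that do not overlap.

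The study singled out 16 genes by name on these same libraries, so that list is not independent evidence of any direction. It also measured osteoblast transcripts by quantitative PCR on day 1 to check the RNA sequencing. They are covered here by 9 genes, osteocalcin being counted as both Bglap and Bglap2. Whether the cultures used for PCR included these 6 is not stated, so independence cannot be assumed for that list either. Of the 16 genes, 3 were lower in day 1 libraries labelled Bcl3-/- than in day 3 WT libraries and none was higher, beside 7.32% and 7.35% of all genes. DESeq2 called 4 lower and 1 higher. Postn (periostin), a matricellular protein of periosteum, had 1024, 1299.5 and 996 CPM in day 1 libraries labelled Bcl3-/- and 1979.5, 2026 and 2548 CPM in day 3 WT libraries (log2 fold change -0.98, SE 0.15, edgeR adjusted p = 0.00163). Its level was 2378, 3401 and 2889.8 CPM in day 3 libraries labelled Bcl3-/- and 428, 468 and 553 CPM in day 1 WT libraries. Periostin in day 1 libraries labelled Bcl3-/- thus lay between the WT libraries of both days, without overlap.

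Tmem178, a transmembrane protein, was also called lower, at 3.14, 4.12 and 4.45 CPM in day 1 libraries labelled Bcl3-/- and 5, 7.4 and 7.93 CPM in day 3 WT libraries (log2 fold change -0.81, SE 0.25, edgeR adjusted p = 0.0499). Its call was lost without any 1 of the 6 libraries other than day 3 WT replicate 1, with RLE factors and in 2 of the FPKM fits. The number of the 16 genes called was 1, 1 and 2 without day 1 Bcl3-/- replicates 1, 2 and 3 and 2, 1 and 1 without day 3 WT replicates 1, 2 and 3. For the other 13, no difference was called, and the intervals decide how alike the groups can be said to be. Only Col3a1, the fibrillar collagen of loose connective tissue, was held inside 1.5-fold (interval -0.50 to 0.25), with 10929, 13539.6 and 12231 CPM in day 1 libraries labelled Bcl3-/- and 12903, 13064 and 14115 CPM in day 3 WT libraries.

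Several of the 13 did not overlap between the groups although no call was made. The share of all genes tested that did not overlap is not given here, so this does not set these genes apart. By edgeR, an unadjusted p under 0.05 was reached by 29.1% of all genes tested and by 6 of the 16. Sfrp1, a secreted Wnt antagonist, had 831, 1326 and 1074 CPM in day 1 libraries labelled Bcl3-/- and 633, 567 and 752 CPM in day 3 WT libraries (log2 fold change 0.73, interval 0.15 to 1.30, edgeR adjusted p = 0.0884). Apoe, a lipid carrier whose gene lies near Bcl3, had 102, 131 and 150.2 CPM against 60.6, 93.5 and 94.2 CPM in day 3 WT libraries (interval 0.18 to 1.07). Mmp3, a matrix metalloprotease (interval -1.58 to -0.20), and Chrdl1, an antagonist of BMP (-1.23 to 0.06), leaned the other way. Wider intervals that include 0 were those of Bmp2, an inducer of bone formation (-0.64 to 0.36), Wnt16, a Wnt ligand of osteoblasts (-0.41 to 0.90), Steap4, a metalloreductase (-0.51 to 0.64), Igfbp3, a carrier of insulin-like growth factors (-1.19 to 0.31), Bglap2, an osteocalcin gene (-0.56 to 0.95), and Mmp9, a gelatinase (-1.43 to 0.49). Col14a1, a collagen that sits on fibrils, gave -1.13 to 0.19 and Fbn2, a fibrillin of microfibrils, -0.33 to 0.74.

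Of the 9 PCR genes, Alpl and Sp7 were called higher and 2 had an interval inside 1.5-fold. The highest Col1a1 value of day 1 libraries labelled Bcl3-/-, 40382 CPM, was below the lowest of day 3 WT libraries, 46164 CPM, with a log2 fold change of -0.26 (interval -0.51 to -0.02, edgeR adjusted p = 0.147). Tnfsf11 (RANKL), the cytokine that osteoclasts need, had 7.89, 11.7 and 11 CPM in day 1 libraries labelled Bcl3-/- and 6.65, 8.13 and 5.87 CPM in day 3 WT libraries (interval 0.09 to 1.04, edgeR adjusted p = 0.105). Tnfrsf11b (osteoprotegerin), its decoy receptor, overlapped between the groups, with an interval of -0.61 to 0.56.

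**Figure D5:**
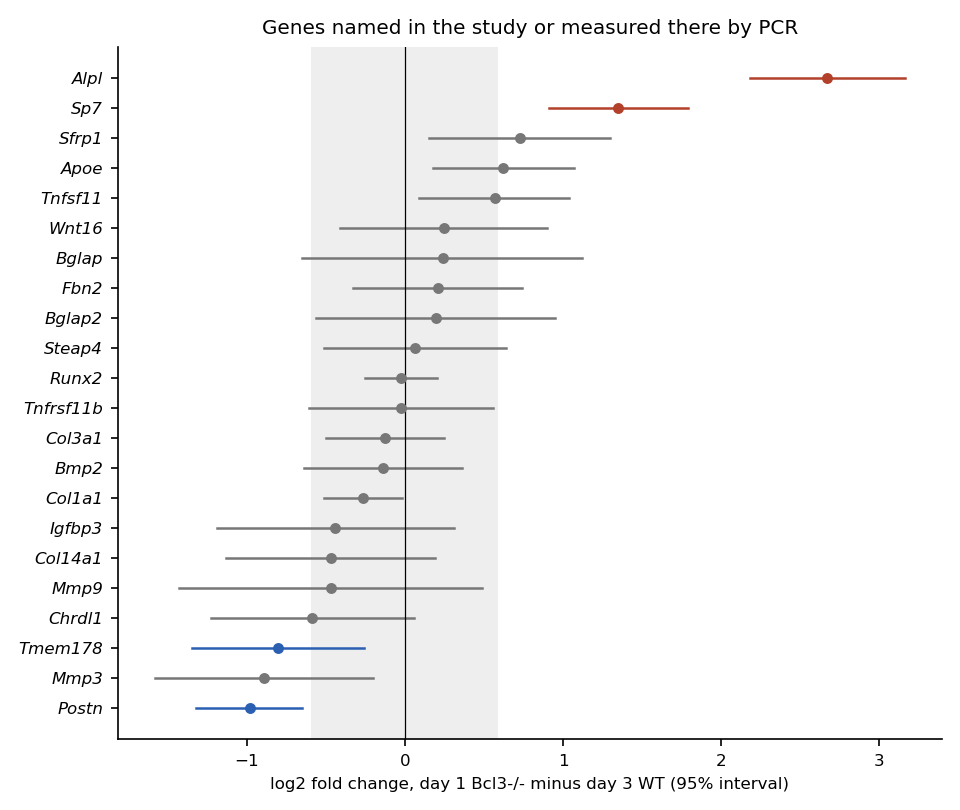
Log2 fold change of day 1 libraries labelled Bcl3-/- over day 3 WT libraries for genes that the study named or measured by PCR, with 95% intervals from the fit (n = 3 libraries per group). The grey band is 1.5-fold in either direction; Alpl (2.18 to 3.16) and Sp7 (0.91 to 1.79) lie wholly to its right, and the intervals of Runx2, Col1a1 and Col3a1 lie inside it.

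Lists of the extracellular matrix differed in direction, and most of their members were not called. Of 19 collagens, none was higher and 5 were lower, with a median log2 fold change of -0.32 and 10 intervals inside 1.5-fold. Without 1 library between 3 and 5 were called, the lowest count of 3 without day 1 Bcl3-/- replicate 1 or 3 and without day 3 WT replicate 1 or 2. Col11a1, which nucleates collagen fibrils, had 419, 473 and 418 CPM in day 1 libraries labelled Bcl3-/- and 592, 613 and 631 CPM in day 3 WT libraries (log2 fold change -0.49, SE 0.08, edgeR adjusted p = 0.00268). Col16a1, a fibril-associated collagen, changed by -0.44 and Col4a1, a basement membrane collagen, by -0.47. The summed collagen level was 79499, 84789 and 83342 CPM in day 1 libraries labelled Bcl3-/- and 95555, 96689 and 103035 CPM in day 3 WT libraries.

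Small leucine-rich proteoglycans, which coat collagen fibrils and set their width, behaved alike. Of 13, none was higher and 3 were lower, with a median log2 fold change of -0.43. Ogn (osteoglycin) had 354, 321 and 299.9 CPM in day 1 libraries labelled Bcl3-/- and 484, 676 and 849 CPM in day 3 WT libraries (log2 fold change -1.04, SE 0.20). Epyc, a cartilage proteoglycan, changed by -1.37, a call lost in 1 of the FPKM fits, and Aspn (asporin) by -0.87, a call lost with DESeq2 and without day 1 Bcl3-/- replicate 1, 2 or 3 or day 3 WT replicate 2 or 3. The list's count was 2 without any library but day 3 WT replicate 1, without which it was 3. Dcn (decorin), the most studied of the family, had 698, 543 and 674 CPM in day 1 libraries labelled Bcl3-/- and 822, 1076 and 1656 CPM in day 3 WT libraries and was not called (interval -1.64 to -0.15).

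Elastic fibre and microfibril genes were split, with 7 of 17 higher and 3 lower. The latent TGF-β binding proteins Ltbp4 and Ltbp2 and the glycoprotein Emilin2 rose. Emilin2 had 144, 193 and 169.5 CPM in day 1 libraries labelled Bcl3-/- and 97.3, 74.8 and 84.4 CPM in day 3 WT libraries (log2 fold change 0.98, SE 0.14), Ltbp4 changed by 0.89 and Ltbp2 by 0.72. The members called lower were Fbln5, Mfap2 and Mfap4, and each lost its call without at least 4 of the 6 libraries. Counts of this list without day 1 Bcl3-/- replicates 1, 2 and 3 and day 3 WT replicates 1, 2 and 3 were 6, 4, 5, 6, 6 and 3 higher and 0, 0, 0, 3, 1 and 0 lower. Eln (elastin) itself overlapped between the groups, with an interval of -0.62 to 0.87.

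Among 18 matricellular proteins, 3 were higher and 3 lower. Tnn (tenascin-W), a protein of periosteum and osteoblast niches, had 148, 171 and 186 CPM in day 1 libraries labelled Bcl3-/- and 50.8, 79.1 and 53.1 CPM in day 3 WT libraries (log2 fold change 1.47, SE 0.20). Ccn1, an integrin ligand, changed by 0.80. Thbs2, a thrombospondin that restrains blood vessel growth, was lower, at 3652, 3349 and 3984 CPM in day 1 libraries labelled Bcl3-/- and 5839, 5638 and 6267 CPM in day 3 WT libraries (log2 fold change -0.69, SE 0.14), a call lost in 1 of the FPKM fits. Of 24 genes of collagen processing and cross-linking, 3 were higher (12.5%) and 4 lower (16.7%), against 7.35% and 7.32% of all genes. Pcolce2, an enhancer of procollagen cleavage, rose by 1.68 on the log2 scale, and Plod3, a lysyl hydroxylase, by 0.41. The 4 lower calls of this list became 0 without day 1 Bcl3-/- replicate 1, 2 or 3 or day 3 WT replicate 3, 1 without day 3 WT replicate 2 and 5 without day 3 WT replicate 1.

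Of 20 matrix proteases and their inhibitors, 2 were higher and 6 lower. Mmp13, the collagenase of bone and cartilage, had 428, 513 and 558 CPM in day 1 libraries labelled Bcl3-/- and 1120.5, 979 and 953 CPM in day 3 WT libraries (log2 fold change -1.03, SE 0.17, edgeR adjusted p = 0.00216). Mmp2, a gelatinase, changed by -0.56 and Mmp14, the membrane protease that activates it, by -0.37, the call for Mmp14 being lost in 2 of the FPKM fits. Every value of Mmp13 in day 1 WT libraries, 123, 93.1 and 142 CPM, was below those of both groups. The members called higher were Timp3, an inhibitor of these enzymes, whose call was lost without any 1 of the 6 libraries, and Adamts5, an aggrecanase, whose call was kept only without day 3 WT replicate 1. The higher count was 0, 0, 0, 1, 1 and 0 and the lower count 5, 4, 4, 6, 4 and 5 without day 1 Bcl3-/- replicates 1 to 3 and day 3 WT replicates 1 to 3.

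Wnt signaling, in which secreted ligands act through frizzled and LRP receptors to stabilize β-catenin and favour bone formation, showed scattered increases. Of 30 ligands and receptors 5 were higher and none lower, with a median log2 fold change of 0.21 and 11 intervals inside 1.5-fold. The count was 2, 1 and 1 without day 1 Bcl3-/- replicates 1, 2 and 3 and 2, 3 and 2 without day 3 WT replicates 1, 2 and 3, so that little of it held. Wnt5a, a ligand of the β-catenin-independent branch, had 45.8, 60.9 and 46.2 CPM in day 1 libraries labelled Bcl3-/- and 35.5, 29.1 and 30.1 CPM in day 3 WT libraries (log2 fold change 0.69, SE 0.14, edgeR adjusted p = 0.00602), a call lost in 1 of the FPKM fits. Of 11 canonical targets 4 were higher, and between 2 and 3 were without 1 library (2 without day 1 Bcl3-/- replicate 2 or 3 or day 3 WT replicate 2 or 3). Apcdd1, a membrane inhibitor that Wnt induces, had 12.7, 13.2 and 10.6 CPM in day 1 libraries labelled Bcl3-/- and 6.26, 5.43 and 7 CPM in day 3 WT libraries (log2 fold change 0.96, SE 0.17). Notum, a deacylase that inactivates Wnt ligands, changed by 1.74 from a low level, and Axin2, the usual readout of β-catenin activity, was not called (interval -0.14 to 0.63). Of 9 secreted antagonists, Notum was higher and Dkk3 lower, the call for Dkk3 being lost without any 1 of the 6 libraries.

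In the BMP list 4 of 23 genes were higher (17.4%) and 1 lower (4.35%), against 7.35% and 7.32% of all genes. Smad6, an inhibitor of BMP receptors that BMP induces, had 46.7, 52.8 and 50.6 CPM in day 1 libraries labelled Bcl3-/- and 29.3, 26.6 and 30.3 CPM in day 3 WT libraries (log2 fold change 0.80, SE 0.15). Chrd (chordin), which sequesters BMP ligands, was lower, at 6.37, 6.92 and 6.29 CPM in day 1 libraries labelled Bcl3-/- and 10.5, 10.1 and 10.7 CPM in day 3 WT libraries (log2 fold change -0.68). The higher count was 3, 1, 2, 3, 1 and 2 without day 1 Bcl3-/- replicates 1 to 3 and day 3 WT replicates 1 to 3. Of 16 genes of the insulin-like growth factor system, 1 was higher (6.25%) and 2 lower (12.5%), near the 7.35% and 7.32% of all genes. Igf1, the growth factor, had 153, 126 and 131 CPM in day 1 libraries labelled Bcl3-/- and 262, 329.5 and 412 CPM in day 3 WT libraries (log2 fold change -1.29, SE 0.21, edgeR adjusted p = 0.00217), and Stc1, an inhibitor of the protease that frees it, changed by 1.87.

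Signals from osteoblasts to osteoclasts gave 2 higher (16.7%) and 1 lower (8.33%) of 12, against 7.35% and 7.32% of all genes. Efnb2 (ephrin-B2) had 92.5, 116 and 111 CPM in day 1 libraries labelled Bcl3-/- and 82.7, 63.8 and 77.8 CPM in day 3 WT libraries (log2 fold change 0.51, SE 0.12). Its receptor gene Ephb4 was also called higher, by 0.30, a call lost without day 1 Bcl3-/- replicate 2 or any of the 3 WT replicates of day 3. Sema3a, a semaphorin that inhibits osteoclasts, was lower by 0.56 on the log2 scale, a call lost without day 1 Bcl3-/- replicate 2 or 3 or day 3 WT replicate 1 or 3.

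Most genes of the NF-κB system, in which BCL3 acts, had RNA levels that were close between the groups. Of its 19 genes, 2 were higher (10.5%, against 7.35% of all genes) and none was lower. An interval inside 1.5-fold was found for 14, against 51.9% of all genes, although interval width also depends on a gene's level. RNA of these genes does not measure NF-κB activity. Nfkb1, which encodes the precursor of p50, had 28.6, 30.7 and 31.6 CPM in day 1 libraries labelled Bcl3-/- and 29.2, 25.6 and 31.1 CPM in day 3 WT libraries (interval -0.10 to 0.26). Nfkbiz, which encodes IκBζ, another nuclear member of the IκB family, had 18, 22.3 and 26.6 CPM in day 1 libraries labelled Bcl3-/- and 16.1, 11.7 and 9.48 CPM in day 3 WT libraries (log2 fold change 0.85, SE 0.18, edgeR adjusted p = 0.00944). Traf3, an adaptor that restrains the non-canonical branch, was also called higher, by 0.29, and lost its call with no count filter, with only the 6 libraries fitted, with the title number as a block, in 2 of the FPKM fits and without day 1 Bcl3-/- replicate 2 or 3 or day 3 WT replicate 2 or 3. Without 1 library between 1 and 3 members were called.

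Most of the 26 cytokines and chemokines were not called, with 4 higher and 1 lower (Ccl8, a monocyte chemokine, under 3 CPM in all 6 libraries, its call lost without day 1 Bcl3-/- replicate 1 or 2 or day 3 WT replicate 2 or 3). Cxcl1 had 8.82, 13.4 and 10.3 CPM in day 1 libraries labelled Bcl3-/- and 2.32, 1.57 and 2.36 CPM in day 3 WT libraries (log2 fold change 2.37, SE 0.19, edgeR adjusted p = 5.55e-05). Cxcl5, a second ligand of CXCR2, had 49.7, 61 and 63.1 CPM in day 1 libraries labelled Bcl3-/- and 23.9, 17.2 and 13.8 CPM in day 3 WT libraries (log2 fold change 1.67, SE 0.20). Ccl7, which attracts monocytes, had 116, 92.8 and 141 CPM in day 1 libraries labelled Bcl3-/- and 53.9, 59.4 and 53.2 CPM in day 3 WT libraries (log2 fold change 1.07, SE 0.18). In all 3 genes the lowest value of day 1 libraries labelled Bcl3-/- was above the highest of day 3 WT libraries. Their choice by small adjusted p favours such a gap. Day 3 libraries labelled Bcl3-/- had 1.92, 2.07 and 2.1 CPM of Cxcl1 and day 1 WT libraries 7.51, 8.99 and 8.44 CPM, so that this gene was higher on day 1 under both labels. Ccl2, a chemokine for monocytes, was not called (log2 fold change 0.39, interval 0.00 to 0.78, edgeR adjusted p = 0.168), and Ccl12, another one and not in the list, was lower by the same test (log2 fold change -2.71). Cxcl2 (log2 fold change 1.97) was called as well but lost its call without day 1 Bcl3-/- replicate 2 or 3 or any of the 3 day 3 WT replicates. Il6, the cytokine most linked to NF-κB, had 3.01, 4.74 and 4.02 CPM in day 1 libraries labelled Bcl3-/- and 2.64, 1.6 and 1.51 CPM in day 3 WT libraries and was not called (interval 0.32 to 1.77, edgeR adjusted p = 0.0559).

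Markers of macrophages had the lowest median of the 47 gene lists. None of 24 was higher, 14 were lower, against 7.32% of all genes, and the median log2 fold change was -1.28. The summed level was 486, 499.9 and 553 CPM in day 1 libraries labelled Bcl3-/- and 968, 1006 and 1403 CPM in day 3 WT libraries, compared with 1152, 801 and 572 CPM in day 3 libraries labelled Bcl3-/- and 535, 419.8 and 659 CPM in day 1 WT libraries. Between 12 and 14 were called without 1 library. In bulk RNA, fewer macrophages and less of these transcripts per cell cannot be told apart.

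Csf1r, the receptor on which macrophages depend, had 16.7, 20.5 and 19.5 CPM in day 1 libraries labelled Bcl3-/- and 51.3, 41.2 and 55.9 CPM in day 3 WT libraries (log2 fold change -1.39, SE 0.18). C1qa, a chain of the complement starter C1q that macrophages make, had 8.92, 8.22 and 8.93 CPM in day 1 libraries labelled Bcl3-/- and 29.1, 34.1 and 43.8 CPM in day 3 WT libraries (log2 fold change -2.04, SE 0.29, edgeR adjusted p = 0.000988). Mrc1, the mannose receptor, had 12.4, 8.8 and 8.07 CPM in day 1 libraries labelled Bcl3-/- and 32.6, 31.6 and 55.5 CPM in day 3 WT libraries (log2 fold change -2.03). Adgre1 (F4/80) changed by -1.51 and Cd68, a lysosomal glycoprotein, by -1.39. Not every marker was lower: Ptprc (CD45), found on all white blood cells, had 11.9, 16.8 and 20.2 CPM in day 1 libraries labelled Bcl3-/- and 23.8, 17 and 16.2 CPM in day 3 WT libraries, with an interval of -0.98 to 0.54. Cx3cr1, the fractalkine receptor of resident macrophages, had 2.6, 1.77 and 3.1 CPM in day 1 libraries labelled Bcl3-/- and 10.8, 7.55 and 10.4 CPM in day 3 WT libraries, a call lost in 1 of the FPKM fits. It was also lower in day 3 libraries labelled Bcl3-/-, at 1.17, 1.36 and 0.21 CPM, than in day 1 WT libraries, at 3.21, 3.03 and 5.73 CPM.

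The complement list overlaps with these markers through the C1q genes. None of its 16 genes was higher and 7 were lower, with a median log2 fold change of -0.62. C3ar1, the receptor for a fragment of C3, changed by -1.61, while C3 itself, the central component, had 14, 13.5 and 11.4 CPM in day 1 libraries labelled Bcl3-/- and 9.29, 11 and 18.1 CPM in day 3 WT libraries (interval -0.59 to 0.62). Osteoclast markers went with them: by edgeR none of 10 was higher and 5 were lower, and by DESeq2 1 was higher and 5 were lower. Ctsk (cathepsin K), the collagenase of osteoclasts, had 204, 175 and 199 CPM in day 1 libraries labelled Bcl3-/- and 244, 317 and 334 CPM in day 3 WT libraries (log2 fold change -0.63, SE 0.12). Acp5, the tartrate-resistant acid phosphatase, changed by -1.20 and Atp6v0d2, a proton pump subunit, by -1.81. How far the summed macrophage level set these differences was not tested.

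Interferon-stimulated genes were lower as a group. These genes are switched on when cells sense virus or interferon. Of 50, none was higher, 20 were lower and 49 had a negative fold change, with a median of -0.99 on the log2 scale. The count rested on single libraries, at 8, 8 and 21 without day 1 Bcl3-/- replicates 1, 2 and 3 and 15, 11 and 16 without day 3 WT replicates 1, 2 and 3, and it was 41 when only the 6 libraries of the pair were fitted. The summed level was 2263, 2147 and 3337 CPM in day 1 libraries labelled Bcl3-/- and 4787, 5155 and 4198 CPM in day 3 WT libraries, so that replicate 3 of each group lay nearest to the other group. Day 3 libraries labelled Bcl3-/- had 4517, 3882 and 3224 CPM and day 1 WT libraries 599, 798 and 1367 CPM. Macrophage markers were lower in the same libraries, as given above, and their part in this was not tested.

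Ifi47, a GTPase that interferon-γ induces, had 8.57, 8.22 and 12.3 CPM in day 1 libraries labelled Bcl3-/- and 28.8, 39.9 and 26.3 CPM in day 3 WT libraries (log2 fold change -1.71, SE 0.25, edgeR adjusted p = 0.00107). Oas3, which makes the signal for RNA decay in infected cells, had 1.24, 1.26 and 1.78 CPM in day 1 libraries labelled Bcl3-/- and 6.05, 4.17 and 5.22 CPM in day 3 WT libraries (log2 fold change -1.85, SE 0.29), a call lost in 2 of the FPKM fits. Ifit2, which blocks viral translation, had 27.7, 28.9 and 33.5 CPM in day 1 libraries labelled Bcl3-/- and 62.9, 54.9 and 50.1 CPM in day 3 WT libraries (log2 fold change -0.90, SE 0.13). The groups did not overlap in any of the 3, which were named for their small adjusted p, so this does not set them apart. Mx1, an antiviral GTPase, changed by -1.40. The ubiquitin-like modifier Isg15 had 67.5, 57.3 and 136 CPM in day 1 libraries labelled Bcl3-/- and 172, 243 and 152 CPM in day 3 WT libraries and was not called (interval -2.29 to 0.05, edgeR adjusted p = 0.193).

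Promoters of 3 interferon-stimulated genes are shown because the element through which such genes are known to be read by IRF factors can be seen in them. The core searched was GAAANNGAA, on both strands of the same 300 bases. It was found in 23 (62.2%) of the 37 list members with a RefSeq promoter, against 9.76% of the 27025 genes. The stretches are again the 120 bases before the start, 5′ to 3′ on the gene's strand, from RefSeq on GRCm38.p6, with matches in capitals. Rsad2 and Irgm1 were chosen for display after their values were seen.
Oas3 (chr5:120777660-120777779, minus strand): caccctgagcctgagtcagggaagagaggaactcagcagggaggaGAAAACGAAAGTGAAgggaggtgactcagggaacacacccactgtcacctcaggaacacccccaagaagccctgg
Rsad2 (chr12:26456453-26456572, minus strand): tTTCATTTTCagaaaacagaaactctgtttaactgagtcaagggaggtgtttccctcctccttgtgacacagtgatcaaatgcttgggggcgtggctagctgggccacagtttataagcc
Irgm1 (chr11:48871421-48871540, minus strand): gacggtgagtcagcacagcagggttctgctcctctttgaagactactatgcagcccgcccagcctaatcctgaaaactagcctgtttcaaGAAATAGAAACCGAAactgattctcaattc

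In Oas3 and Irgm1 a pair of matches overlap, and in Rsad2 the match lies on the other strand. Rsad2 (viperin), an inhibitor of viral replication, had 3.64, 4.26 and 7.18 CPM in day 1 libraries labelled Bcl3-/- and 16.3, 16.3 and 10.4 CPM in day 3 WT libraries (log2 fold change -1.51, SE 0.25). Irgm1, a GTPase that interferon-γ induces, had 88.3, 83.6 and 134 CPM in day 1 libraries labelled Bcl3-/- and 235, 236 and 173 CPM in day 3 WT libraries (log2 fold change -1.07, SE 0.27), a call lost without day 1 Bcl3-/- replicate 1 or 2 or day 3 WT replicate 2.

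MHC class I genes, which display peptides to cytotoxic T cells and respond to interferon, were lower in the same direction. All 19 had a negative fold change, 10 were called lower and the median was -0.55. H2-K1, a classical heavy chain, had 178, 181 and 233 CPM in day 1 libraries labelled Bcl3-/- and 289.7, 307 and 439 CPM in day 3 WT libraries (log2 fold change -0.81, SE 0.16). Tapbp (tapasin), which loads peptide, had 183, 185 and 219.9 CPM in day 1 libraries labelled Bcl3-/- and 331, 318 and 364 CPM in day 3 WT libraries (log2 fold change -0.78, SE 0.14). Reads of the H2 heavy chain genes can be shared between near-identical copies, so the split among them is uncertain. The number called was 4, 3 and 8 without day 1 Bcl3-/- replicates 1, 2 and 3 and 10, 5 and 5 without day 3 WT replicates 1, 2 and 3. Summed levels were 1840.4, 1674 and 2219.7 CPM in day 1 libraries labelled Bcl3-/- and 2565, 2934 and 3384 CPM in day 3 WT libraries.

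In metabolism, genes of cholesterol synthesis were either lower or not called. Of 21 genes, none was higher, 6 were lower and 13 had an interval inside 1.5-fold. Insig1, the sterol sensor that holds this pathway back, had 201.2, 190.6 and 192.3 CPM in day 1 libraries labelled Bcl3-/- and 349.4, 322.5 and 386 CPM in day 3 WT libraries (log2 fold change -0.86, SE 0.14, edgeR adjusted p = 0.00229). Msmo1, an enzyme of sterol demethylation, changed by -0.62. For both genes every value of day 1 libraries labelled Bcl3-/- lay below every value of day 3 WT libraries. Both were named for a small adjusted p, which favours this. The count was 3, 3, 3, 4, 5 and 3 without day 1 Bcl3-/- replicates 1 to 3 and day 3 WT replicates 1 to 3.

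Glycolysis and hypoxia genes gave 1 higher and 1 lower of 22, with 18 intervals inside 1.5-fold. The lower one, Pdk1, which keeps pyruvate out of mitochondria, had 23.2, 22.6 and 23.8 CPM in day 1 libraries labelled Bcl3-/- and 31.5, 49.6 and 49 CPM in day 3 WT libraries (log2 fold change -0.90, SE 0.17), a call lost in 2 of the FPKM fits. Antioxidant genes gave 3 higher (20%) and 2 lower (13.3%) of 15, against 7.35% and 7.32% of all genes. Gpx3, a secreted glutathione peroxidase, had 162, 178 and 208 CPM in day 1 libraries labelled Bcl3-/- and 288, 601 and 746 CPM in day 3 WT libraries (log2 fold change -1.58, SE 0.27), whereas Nqo1 (0.59) and Gclm (0.39), targets of NRF2, were higher. None of the 13 mRNAs of the mitochondrial genome was called by edgeR or DESeq2, 0 had an unadjusted p under 0.05, and their summed levels overlapped.

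Markers of other cells in calvarial preparations were mixed, and their counts are to be read beside 7.35% higher and 7.32% lower of all genes. Skeletal muscle markers were higher in 5 of 11, with a median log2 fold change of 1.88, but at low levels. Their sum was 20.9, 45.1 and 22.5 CPM in day 1 libraries labelled Bcl3-/-, with the highest value in replicate 2, and 13.7, 14.5 and 11.3 CPM in day 3 WT libraries. Myh3, the embryonic myosin heavy chain, had 2, 5.93 and 1.58 CPM in day 1 libraries labelled Bcl3-/- and 0.317, 0.675 and 0.376 CPM in day 3 WT libraries, a call lost in the FPKM fits. Without day 1 Bcl3-/- replicates 1, 2 and 3 the count was 4, 3 and 3, and 3 without any of the day 3 WT replicates. Of 12 markers of fibroblasts and tendon 5 were lower, and 2, 3, 2, 4, 3 and 2 were without day 1 Bcl3-/- replicates 1 to 3 and day 3 WT replicates 1 to 3. Scx (scleraxis), the transcription factor of tendon, had 19.8, 14.6 and 18.1 CPM in day 1 libraries labelled Bcl3-/- and 36.7, 52.2 and 39.8 CPM in day 3 WT libraries (log2 fold change -1.29, SE 0.14, edgeR adjusted p = 0.00024).

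Among chondrocyte markers 1 of 14 was lower, Col9a3, a chain of cartilage collagen IX, at 26.4, 30.1 and 27.2 CPM in day 1 libraries labelled Bcl3-/- and 97.6, 78.7 and 60.2 CPM in day 3 WT libraries (log2 fold change -1.50, SE 0.22). Smooth muscle markers gave 2 lower of 13, the smooth muscle myosin Myh11 (call lost without day 1 Bcl3-/- replicate 1) and the myosin kinase Mylk (call lost without day 1 Bcl3-/- replicate 1, 2 or 3 or day 3 WT replicate 3), and counts without those replicates of day 1 were 0, 2 and 1 and without day 3 WT replicates 1 to 3 were 4, 2 and 1. Adipocyte markers gave 2 higher of 7, Car3 and Cebpa, a transcription factor of fat cells (call lost without day 1 Bcl3-/- replicate 2 or 3 or day 3 WT replicate 1 or 2). Neural markers gave 1 higher of 9, Tubb3, a tubulin of neurons that dividing cells also use, by 1.04, a call lost in the FPKM fits. Osteocyte genes gave 1 higher of 9, Hyou1, already counted with the unfolded protein response. No endothelial or pericyte marker of 8 each was called by edgeR, with 1 and 2 at an unadjusted p under 0.05, and DESeq2 called no endothelial and 2 pericyte markers. Lymphocyte markers summed to no more than 6.26 CPM in any library of the pair, with Cd79a called higher only while all 6 libraries, or all but day 1 Bcl3-/- replicate 1, were kept, and not with either block, with thinned counts, in the FPKM fits or where at least 1 CPM was required. Of the neutrophil list a single gene passed the filter on low counts and it was called by neither edgeR nor DESeq2 (unadjusted p under 0.05 in 0), and no red cell gene passed that filter.

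The largest increases among genes with an average log2 CPM of at least 1 were spread over several roles, and most were of genes with low levels. Car3, a muscle and fat carbonic anhydrase, had 12.4, 9 and 3.85 CPM in day 1 libraries labelled Bcl3-/- and 0.352, 0.706 and 0.301 CPM in day 3 WT libraries (log2 fold change 4.22, SE 0.53, edgeR adjusted p = 0.000478). Hhip, a decoy that binds hedgehog ligands, had 5.31, 6.58 and 3.79 CPM in day 1 libraries labelled Bcl3-/- and 0.457, 0.921 and 0.978 CPM in day 3 WT libraries, with its call lost in 1 of the FPKM fits. Draxin, an axon guidance protein that binds Wnt receptors, had 10.3, 12.2 and 13 CPM in day 1 libraries labelled Bcl3-/- and 2.11, 2.52 and 2.08 CPM in day 3 WT libraries. In these 3 genes the lowest day 1 value was more than 3 times the highest day 3 WT value. Asic3, an acid-sensing channel, Rtn4rl2, a Nogo receptor homolog, Avil, an actin-severing protein, and Car8, a carbonic anhydrase-related protein, changed by between 2.10 and 2.58, and Colec10, a collectin of the complement lectin pathway, by 1.78.

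Dlk1, a membrane protein that holds back fat and bone differentiation, had 71.8, 85.4 and 58.6 CPM in day 1 libraries labelled Bcl3-/- and 16, 27.2 and 21.5 CPM in day 3 WT libraries (log2 fold change 1.74, SE 0.21). Dlk1 was also higher in day 3 libraries labelled Bcl3-/-, at 63.2, 77.9 and 46.1 CPM, than in day 1 WT libraries, at 37.2, 38.5 and 32.9 CPM. Of the 15 largest increases, 2 depended on single libraries. Cd209a, a lectin of dendritic cells, lost its call with DESeq2, with the title number as a block, in 2 of the FPKM fits and without day 1 Bcl3-/- replicate 2 or 3 or any of the day 3 WT replicates. Dynap, a membrane protein, lost it with thinned counts, with culture as a block, in the 3 FPKM fits and without day 1 Bcl3-/- replicate 1 or 3 or day 3 WT replicate 2 or 3.

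Among the 15 largest decreases were several genes of macrophages. Fcrls, an Fc receptor-like protein of resident macrophages, had 3.64, 3.24 and 2.73 CPM in day 1 libraries labelled Bcl3-/- and 23.3, 21.6 and 36.5 CPM in day 3 WT libraries (log2 fold change -3.08, SE 0.37, edgeR adjusted p = 0.000379). Siglec1 (CD169) had 1.95, 1.02 and 1.45 CPM in day 1 libraries labelled Bcl3-/- and 8.9, 7.52 and 16.5 CPM in day 3 WT libraries (log2 fold change -2.88). C5ar1, the receptor for complement C5a, changed by -2.25, Ccl12, a monocyte chemokine of mice, by -2.71, and Stab1, a scavenger receptor, by -2.36 with its call lost in the FPKM fits. Also among the 15 were Tspan8, a tetraspanin (-2.37), Scube2, a carrier that releases hedgehog ligands (-2.09), Atp12a, a proton-potassium pump (-2.13), Nrgn (neurogranin; -2.21) and Zim1, an imprinted zinc finger gene (-2.04). Scube2 had 2.33, 1.23 and 1.32 CPM in day 1 libraries labelled Bcl3-/- and 4.19, 7.98 and 8.81 CPM in day 3 WT libraries. Ndufa4l2, a hypoxia-responsive mitochondrial protein (-2.45), lost its call with culture as a block, in the 3 FPKM fits and without day 1 Bcl3-/- replicate 1, 2 or 3 or day 3 WT replicate 2, and Dio2, which activates thyroid hormone (-2.08), without day 1 Bcl3-/- replicate 2 or 3.

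Some genes were higher, or lower, under the label Bcl3-/- both in this pair and in day 3 libraries labelled Bcl3-/- against day 1 WT libraries. Of these 126 genes, 18 (14.3%) lay on chromosome 7, which carries Bcl3, against 7.56% of all genes tested, and 14 (11.1%) lay within 20 Mb of Bcl3, against 2.51%. Car3 had 22.9, 17.8 and 8.26 CPM in day 3 libraries labelled Bcl3-/- and 0.452, 0.637 and 0.639 CPM in day 1 WT libraries. Car3 was thus higher in all 6 libraries labelled Bcl3-/- than in any of the 6 WT libraries. Ide, which encodes an insulin-degrading protease, had 122, 125 and 127 CPM in day 1 libraries labelled Bcl3-/- and 214, 228 and 170.3 CPM in day 3 WT libraries, and 108, 102 and 107 CPM in day 3 libraries labelled Bcl3-/- and 215, 226 and 179 CPM in day 1 WT libraries. All 6 values of Ide under the label Bcl3-/- lay below all 6 of WT. For Car3 and Ide alike, the 6 libraries of each label came from 3 cultures sampled on both days. They are thus not 6 separate cultures, and a difference between cultures would appear on both days.

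Ide belongs to a list of 5 tested genes known to differ in copy or sequence between substrains of C57BL/6 mice, of which 3 were lower and none higher. Fgfbp3, a carrier of fibroblast growth factors whose gene lies near Ide, had 3.26, 3.27 and 3.33 CPM in day 1 libraries labelled Bcl3-/- and 10.2, 11.1 and 6.65 CPM in day 3 WT libraries (log2 fold change -1.50, SE 0.21, edgeR adjusted p = 0.000879). Nnt, a mitochondrial transhydrogenase, changed by -0.39, a call lost without day 1 Bcl3-/- replicate 1, 2 or 3 or day 3 WT replicate 2 or 3. The study describes its Bcl3-/- and WT mice as littermates. Whether the libraries of each label came from the same substrain was not tested. None of 5 genes specific to 1 sex was called by edgeR or DESeq2, and 0 had an unadjusted p under 0.05.

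Genes that neighbour Bcl3 on chromosome 7 were examined as well. Of 15 tested neighbours 4 were higher and 1 lower, and 7 had an interval inside 1.5-fold. Nectin2, an adhesion protein, had 68.4, 73.2 and 72.2 CPM in day 1 libraries labelled Bcl3-/- and 49.2, 39.2 and 40.3 CPM in day 3 WT libraries (log2 fold change 0.73, SE 0.09, edgeR adjusted p = 0.000351). Tomm40, a pore of the mitochondrial outer membrane, changed by 0.41, and Bloc1s3, a subunit of a vesicle-sorting complex, by -0.46. The call for Bloc1s3 was lost without day 1 Bcl3-/- replicate 3 or day 3 WT replicate 3, and that of Pvr, the poliovirus receptor homolog (0.49), without day 1 Bcl3-/- replicate 1, 2 or 3 or day 3 WT replicate 2 or 3. Relb, an NF-κB subunit whose gene lies near Bcl3, overlapped between the groups (interval -0.47 to 0.29). Apoc1, a lipoprotein component, had 9, 12 and 21 counts in day 1 libraries labelled Bcl3-/- and no count in any day 3 WT library, against which a floor of 3 counts over the group makes it at least 14.9-fold higher. It had 14, 26 and 5 counts in day 3 libraries labelled Bcl3-/- and 0, 3 and 0 counts in day 1 WT libraries. Its call was lost with DESeq2, with counts thinned to the smallest total, with only the 6 libraries fitted and where at least 1 CPM was required.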

How the data were processed

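RNA sequencing (polyA RNA, SMART-seq v4 cDNA amplification) covered 12 libraries. The authors trimmed reads with Trim Galore, aligned them to GRCm38/mm10 with TopHat2 and counted reads per gene with HTSeq, and the deposited counts are raw whole reads for 49585 genes. Reads outside genes (5 entries, 12.3 to 14.7% per library) were left out. The deposited FPKM values were made by the authors with Cufflinks, which divides reads by transcript length and library depth. Of these, 49318 genes entered, without 49 entries that hold several values per library and 1 repeated header line. Tool versions, the strand setting and the annotation release are not given in the sources used here, so overlapping and antisense genes cannot be told apart. No value column was left unmapped (0). Gene names came from GENCODE M21 (49326 IDs matched), promoters from RefSeq GRCm38.p6.

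Genes kept by filterByExpr (16318) were normalized by TMM (factors 0.951 to 1.05) and fitted with edgeR's quasi-likelihood test in 1 model of 4 groups over all 12 libraries. Calls used a Benjamini-Hochberg adjusted p under 0.05 over all genes, and every adjusted p is from this test. CPM values are TMM-normalized. p-values measure the spread between libraries within the 4 groups, each library of a group being from a different culture. The 12 libraries came from 6 cultures sampled on both days and were fitted as independent. The estimated correlation within a culture was 0.197 and entered only the alternative with culture as a block. No pair of libraries was a copy (smallest chi-square per gene 9.402 over 66 pairs). In simulated data for this comparison (16013 genes, 200 changed), 7 of 197 calls were false. Genes changed by log2 folds of 0.7, 1, 2 and 3 were recovered at 82, 98, 100 and 100%. The simulation treated the 12 libraries as independent and gave each gene the spread usual for its level. It changed only genes with an average log2 CPM over 1. These shares check the steps and do not give the power or the false share in the real data.

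The comparison, its 47 gene lists and the tests were chosen with earlier results of these data known. Genes were named by a rule: Bcl3; the study's 16 genes and PCR genes; the 15 largest increases and 15 largest decreases among called genes with an average log2 CPM of at least 1, groups that do not overlap and an established name; and for each list up to 4 called members with the smallest adjusted p, with any that went against the majority. That gave 173 genes. Those named for a call or a large change were picked in these same libraries, which favours groups that do not overlap. Further genes, Mki67, Top2a, Mcm5, Cdk1, Ube2c, Rsad2, Irgm1, Cd68, Cx3cr1, Ptprc, Cxcl2, Ccl2, Il6, Isg15, Spp1, Ibsp, Axin2, Nfkb1, Relb, Dcn, Eln, C3 and Pvr, were chosen after their values were seen. Some genes that the rule names are counted but not reported here.

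Alternatives were DESeq2, upper-quartile or RLE factors in place of TMM, dropping the filter, requiring 1 CPM in 6 or more libraries, only the 6 libraries compared, counts thinned to 20009732, blocks by title number and by culture, limma on log2(FPKM + 1), on log2(FPKM + 0.1) and on log2(FPKM + 1) after dropping genes that reach an FPKM of 1 in fewer than 3 libraries, and leaving out each of the 6 libraries. R 4.3.3, edgeR 4.0.16, limma 3.58.1, DESeq2 1.42.0, Python 3.11.15, pandas 2.3.3, numpy 2.4.6 and matplotlib 3.10.9 were used.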

Additional observations from a re-analysis of the deposited data

How the results depend on the processing

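Counts of genes depended on the processing. Of the 173 named genes, 6 changed the sign of their log2 fold change under 1 or more of the 18 alternatives. None of these was called in the fit as reported or in any alternative that turned the sign. Many of the 173 were named because they were called in these same libraries, which favours steady signs among them. How often the sign changed over all genes tested was not counted. Of the 154 called genes 108 stayed called without each of the 6 libraries and 90 also in the 12 other settings. Leaving out 1 library gave 614 to 1219 genes higher, 512 to 1108 lower, 113 to 209 higher with a log2 fold change over 1 and 165 to 273 lower with one under -1. Limma on log2(FPKM + 1), on log2(FPKM + 0.1) and on filtered log2(FPKM + 1) gave 498, 474 and 704 lower, and 60, 119 and 79 under -1. Over 1 they gave 50, 112 and 61, and a minimum of 1 CPM in at least 6 libraries gave 102. The unfiltered FPKM fits put 28245 and 16035 genes inside 1.5-fold, over a larger set of genes. The 3 FPKM fits ended 51, 51 and 24 calls of named genes; the cause was not tested.

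Tnfrsf11b, at a log2 fold change of -0.03 as reported, came to 0.0377 with the title number as a replicate block, 0.0648 with culture as a replicate block, and 0.10, 0.10 and 0.10 in the 3 FPKM fits. Runx2, at -0.02, came to 0.0065 in thinned counts. Leaving out 1 library gave -0.281 to 0.337 for Tnfrsf11b, -0.0628 to 0.055 for Runx2, -0.0348 to 0.454 for Bglap2 (0.20 as reported), -0.302 to 0.0811 for Bmp2 (-0.14), -0.769 to 0.292 for Mmp9 (-0.47) and -0.177 to 0.402 for Steap4 (0.07). Col1a1 is listed at 0 FPKM in the 6 libraries compared, so the FPKM fits give it no value.

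No shared culture pairs these groups, and same-numbered libraries deviated with correlations of -0.171, -0.133 and -0.114, so the numbers are no pairing. With the title number as a replicate block, 1115 genes were higher and 1117 lower, and with culture as a replicate block 1305 and 1295.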
